A study of Mus musculus with 35 samples.

Results

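The genes described here encode 9 enzymes of mitochondrial fatty acid oxidation (Cpt1a, Cpt2, Acadvl, Acadl, Acadm, Hadha, Hadhb, Hadh and Etfdh) and the transcriptional coactivator Ppargc1b. They were taken by symbol from 47069 Ensembl identifiers, and all 10 were found and tested. Transcripts were measured by RNA-seq in bone marrow-derived macrophages (BMDMs), that is, macrophages grown from C57BL/6 mouse bone marrow in L929-conditioned medium. Of 35 libraries, 17 were wild type and 18 were labelled AMPKα1-/-, a deletion of the catalytic α1 subunit of AMP-activated protein kinase that is encoded by Prkaa1. Cells of each genotype received vehicle (DMSO), 100 nM of the glucocorticoid dexamethasone (Dex), 100 ng/ml of the bacterial endotoxin lipopolysaccharide (LPS), LPS + Dex, 1 µg/ml of damage-associated molecular patterns (DAMPs) or DAMPs + Dex for 24 h. Each group held 3 libraries, except wild-type LPS, for which replicates 2 and 3 were used. The composition of the DAMPs is not given in the sources used here. The study's methods count N as cultures of separate mice unless stated otherwise, while the labels give replicate numbers without naming mice, and the p-values measure the spread between these libraries.

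Values are FPKM, fragment numbers scaled for gene length and library total. Levels of different genes are thus compared per length, and such comparisons depend on the gene length used. Whole fragments leave steps among the lowest FPKM values, and from these the totals were estimated at 15837203 to 31955298 per library. At that depth 1 fragment on 1 kb of transcript gave between 0.0313 and 0.0631 FPKM. Fold changes are differences of log2(FPKM + 1), which understate changes of low genes such as Ppargc1b, and are given ± SE. Adjusted p-values are those of limma with Benjamini-Hochberg adjustment over 11354 genes, and a gene is called where its adjusted p lies under 0.05.

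The labels were checked first. Prkaa1 did not separate the genotypes. Its level was 15.9, 11.8 and 15.3 FPKM in the wild-type vehicle libraries and 14.8, 16.5 and 15.4 FPKM in the vehicle libraries labelled AMPKα1-/-. Over the 6 treatments its difference between genotypes lay between -0.29 and 0.33 on the log2 scale, and none was called. A gene-level value can include transcript from outside a deleted part, and which part was deleted is not given in the sources used here, so every statement on genotype refers to the label. LPS and Dex were plain in their check genes, and DAMPs were not. With DAMPs against vehicle, Acod1 was the only LPS check gene called in either genotype. It went from 1.88 to 6.78 FPKM in wild-type cells (adjusted p = 0.0465) and from 2.27 to 10.7 FPKM in labelled cells. Il1b, Il6, Nos2 and Cxcl10 were not called there. The cytokine Il1b went from a mean of 4.96 to 15293 FPKM with LPS in wild-type cells, and Fkbp5, a glucocorticoid-induced immunophilin, went from 1.91 to 341 FPKM with Dex.

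All 7 macrophage markers had group means of at least 1 FPKM in every group, led by Lyz2, with summed levels of 12948 to 39154 FPKM. T cell, erythroid and mast cell or basophil markers stayed below 1 FPKM in every group, and the 4 stromal markers summed to at most 12.8 FPKM in any library. The macrophage markers moved apart with LPS. In wild-type cells Cd68 went from 1522 to 187 FPKM, Csf1r from 577 to 228 FPKM and Fcgr1 from 80.6 to 323 FPKM, all called. In each genotype 4 of 7 were called lower and 2 higher. Of all genes tested, 35.8% in wild-type and 44.1% in labelled libraries were called lower with LPS, and 19.9% and 20.2% higher. With Dex, wild-type Itgam fell from 63.5 to 11.5 FPKM and Fcgr1 from 80.6 to 8.10 FPKM, and Mertk rose from 37.8 to 204 FPKM. Markers of other cells also moved with LPS. The stromal markers Dcn and Pdgfrb rose from 0.210 to 3.23 FPKM and from 0.209 to 3.41 FPKM in wild-type cells, and both were called higher in labelled cells too, while Col1a1 was not called. The summed level of the 6 neutrophil markers was 0.527 to 9.95 FPKM in wild-type vehicle libraries and 113 to 133 FPKM with LPS, nearly all of it Camp, while 3 of the 6, Mpo, Ly6g and Ngp, were at 0 there. The neutrophil marker Ltf went the other way, from 1.46 to 0.154 FPKM in wild-type cells, not called, and from 3.70 to 0.336 FPKM in labelled cells, called lower. The sum of the 4 dendritic cell markers went from 0.336 to 0.666 FPKM with vehicle to 38.6 to 111.6 FPKM with LPS, mostly the chemokine receptor Ccr7, while Flt3 was at 0. With LPS + Dex against LPS, wild-type Ccr7 fell from 73.7 to 0.860 FPKM, Camp from 123 to 39.9, Pdgfrb from 3.41 to 1.70 and Fcgr1 from 323 to 71.0 FPKM. Csf1r, Mertk and Lyz2 rose there, and these 7 genes were called in the same directions in labelled cells. The part of these markers in the changes below was not tested. In bulk samples of this kind, less RNA per cell and fewer cells of a type cannot be told apart.

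Fatty acids are burned in the mitochondrial matrix. Long-chain acyl groups enter as carnitine esters made by CPT1 at the outer membrane and are returned to coenzyme A by CPT2 inside. Each turn of the β-oxidation spiral then uses an acyl-CoA dehydrogenase matched to chain length, hydration, a second dehydrogenation and thiolysis, and the electrons of the first step reach ubiquinone through ETF dehydrogenase. In macrophages fatty acid oxidation is commonly set beside an alternatively activated state, and glycolysis beside the LPS-activated state.

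Promoter sequences are shown for the genes on which the comparisons turn. Hadha and Hadhb, the subunits of the trifunctional protein, start head to head on chromosome 5, with 85 bases between the outermost ends of the genes in GENCODE. These bases are chr5:30155163-30155247 in GRCm38.p6, printed on the plus strand from the Hadha side to the Hadhb side, with each GC box (GGGCGG, searched on both strands) in capitals.
Hadha-Hadhb: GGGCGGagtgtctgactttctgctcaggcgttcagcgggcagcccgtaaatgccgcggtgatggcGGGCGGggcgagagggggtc
Cpt1a and Hadh are shown because both fell with LPS and Hadh alone of them was called higher when Dex was added. The bases upstream of their RefSeq starts, without those in annotated exons, are chr19:3323051-3323284 (plus strand) and chr3:131272102-131272351 (minus strand). The Cpt1a stretch lies inside the gene as GENCODE annotates it, since the outermost start there is further upstream. In Cpt1a the capitals mark the nuclear receptor half-site AGGTCA and in Hadh the glucocorticoid receptor half-site AGAACA, on either strand.
Cpt1a: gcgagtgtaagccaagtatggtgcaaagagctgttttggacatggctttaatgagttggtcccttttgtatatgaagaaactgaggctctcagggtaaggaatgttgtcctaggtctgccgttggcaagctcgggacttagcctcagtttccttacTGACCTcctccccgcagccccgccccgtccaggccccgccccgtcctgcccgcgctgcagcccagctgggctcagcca
Hadh: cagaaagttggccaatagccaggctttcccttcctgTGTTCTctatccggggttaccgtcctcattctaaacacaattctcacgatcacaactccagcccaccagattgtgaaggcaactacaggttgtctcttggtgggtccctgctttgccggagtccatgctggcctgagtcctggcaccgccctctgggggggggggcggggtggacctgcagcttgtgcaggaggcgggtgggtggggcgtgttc
RefSeq windows from 250 bases before to 50 bases after the start were at hand for 9 of the 10 genes. AGGTCA lay in 3 of the 9 windows (Cpt1a, Acadm and Acadvl) and in 16.3% of all 32851 windows. AGAACA lay in 1 of 9 (Hadh) and in 19.0% of all, and GGGCGG in 7 of 9 and in 35.7% of all. The RefSeq starts of Hadha and Hadhb lie 272 bases apart, so their windows overlap and a GC box there can count for both. None of the 9 windows held TCAAGGTCA (0.423% of all), an extension of AGGTCA known as the estrogen-related receptor site, nor TGACGTCA (1.79%) or CACGTG (7.15%).

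Per length the levels spanned a wide range, and their order rests on the gene lengths used. Annotated exonic lengths ran from 2005 bases for Acadl to 8730 for Hadha. In estimated fragments, the median over libraries was 19815 for Hadha and 11379 for Acadm. Averaged over all libraries, Acadm was highest with 136 FPKM, followed by Hadha with 111 and Hadhb with 67.6 FPKM. Acadvl, Acadl and Cpt1a followed with 44.1, 37.9 and 31.7 FPKM, and Etfdh, Cpt2 and Hadh with 22.5, 20.3 and 17.4 FPKM. Ppargc1b was lowest with 3.33 FPKM. This order of pooled means did not hold in each group. With LPS and with LPS + Dex, the Hadha mean lay above that of Acadm in both genotypes. In wild-type LPS libraries these means were 108 and 70.6 FPKM, and in wild-type LPS + Dex libraries 105 and 93.6 FPKM. Hadha varied least between groups, with 1.29 times between its highest and lowest group means, and Ppargc1b and Hadh most, with 8.83 and 7.26 times.

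**Figure D1:**
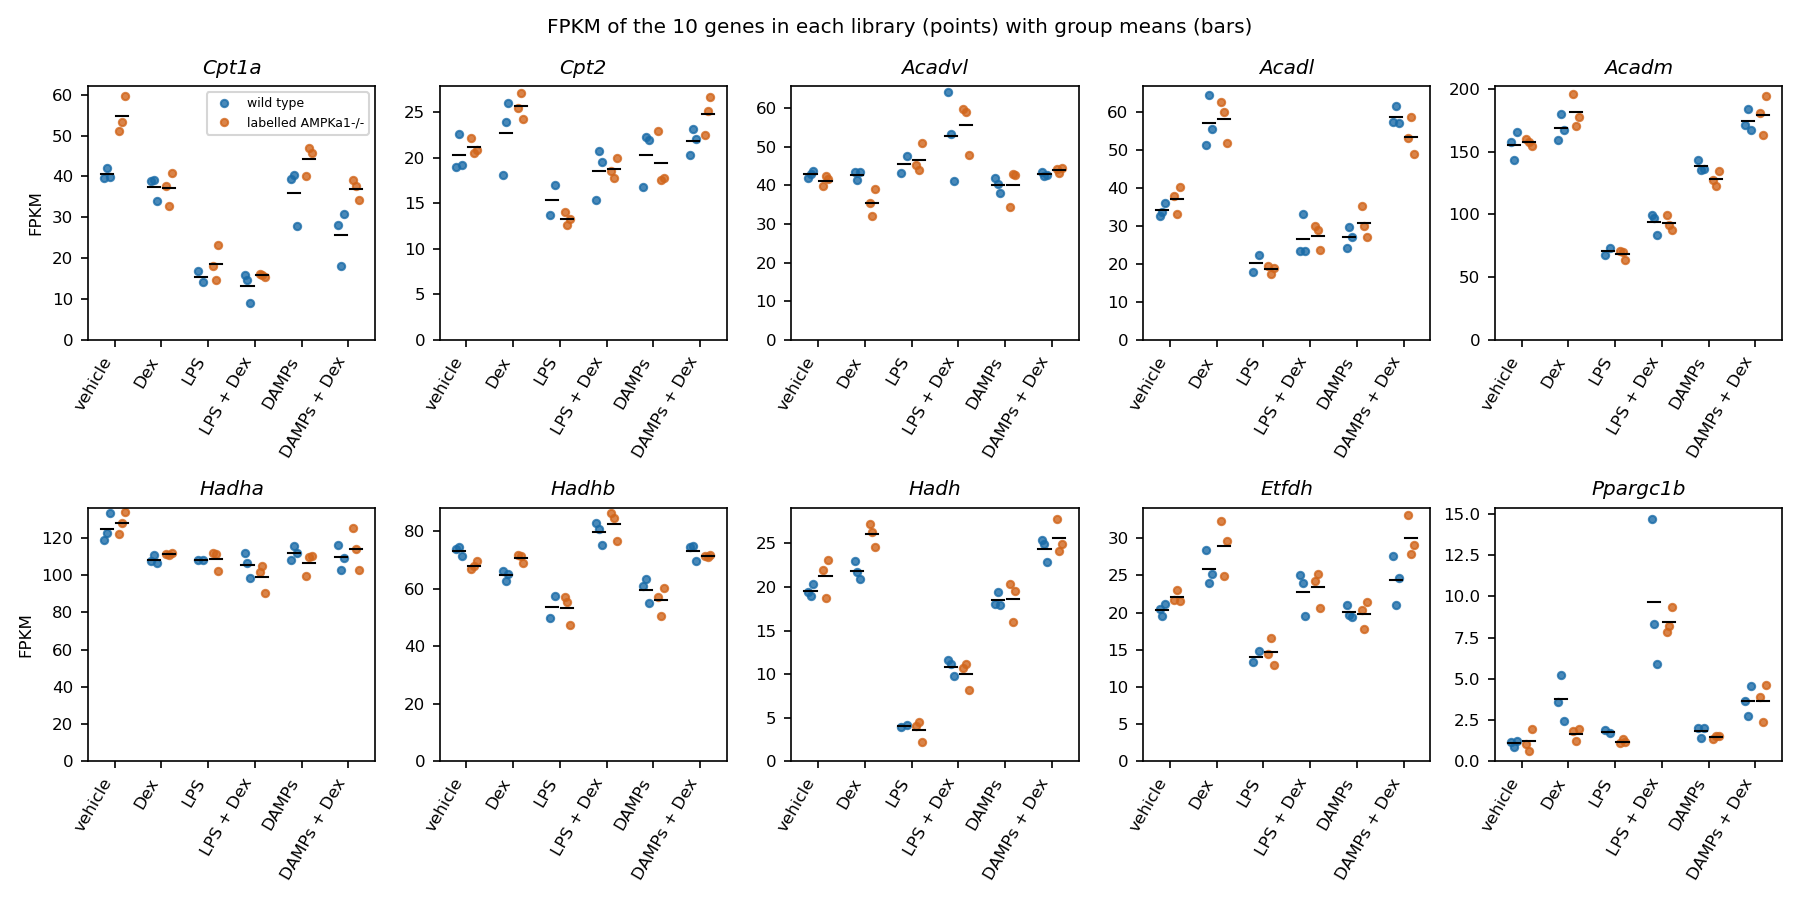
FPKM (vertical axes, starting at 0) of the 10 genes in each library, by treatment (horizontal axes), with wild-type libraries in blue, libraries labelled AMPKα1-/- in orange and group means as black bars. Hadh lies at 4.51 FPKM or lower in all 5 LPS libraries and at 8.23 FPKM or higher in all 6 LPS + Dex libraries, while Cpt1a stays at 23.2 FPKM or lower in both.

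LPS lowered most of the enzymes, and Dex given with LPS raised most of them again, Cpt1a and Hadha being lowered by LPS and not called higher with Dex in either genotype. With LPS against vehicle, 8 of 10 genes were called lower in wild-type cells, where 35.8% of all genes tested were called lower. The same 8 of 10 were called lower in libraries labelled AMPKα1-/- (44.1% of all genes). No gene of the 10 was called higher in either genotype, against 19.9% and 20.2% of all genes. The median over the 10 was -0.47 in wild-type and -0.60 in labelled libraries on the log2 scale, beside -0.19 and -0.30 over all genes tested. Since the median of all genes itself lay below 0, the changes with LPS are also given relative to it. Hadh, Cpt1a, Acadm and Acadl were then at -2.02 to -0.55, whereas Hadha was at -0.02 in wild-type and 0.06 in labelled libraries. When libraries were centred on one median, the genes called lower became 6 in wild-type and 5 in labelled libraries, and 2 and 1 were called higher, Acadvl in both and Ppargc1b in wild type. The share of higher genes among all those called went from 35.7% to 46.3% in wild-type and from 31.4% to 49.0% in labelled libraries under this centring.

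With LPS + Dex against LPS, 6 of 10 genes were called higher in wild-type cells (16.6% of all genes) and 7 of 10 in libraries labelled AMPKα1-/- (19.3%). None was called lower, against 17.5% and 18.4% of all genes. Shared by both genotypes were Acadm, Acadl, Hadhb, Hadh, Etfdh and Ppargc1b, and Cpt2 was the gene called in labelled libraries alone. The Cpt2 response did not pass the test of a difference between genotypes (0.21, 95% interval -0.20 to 0.61). The median over the 10 was 0.39 and 0.50, beside -0.03 and 0.01 over all genes. LPS against vehicle and LPS + Dex against LPS share the LPS libraries, so that their values are not independent.

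The comparison of LPS + Dex with vehicle, which does not use the LPS libraries, showed what remained. Here 5 of 10 genes were called lower in both genotypes (Cpt1a, Acadm, Acadl, Hadha and Hadh), where 37% of all genes were lower in wild-type and 40.8% in labelled libraries. Acadvl and Ppargc1b were called higher in both, and Hadhb was called higher in labelled libraries as well, against 17.2% and 16.7% of all genes. Without wild-type vehicle replicate 3, the wild-type calls fell from 7 to 4. The median over the 10 was -0.19 and -0.27, beside -0.23 and -0.28 over all genes. With libraries centred on one median the members' medians became 0.04 and 0.02. Etfdh was then called higher in both genotypes, and the share of higher genes among all those called went from 31.7% to 50.3% and from 29.0% to 50.9%. In these libraries 1 gene, the acute-phase gene Saa3, held 16.0% to 24.0% of the summed FPKM in wild-type and 16.5% to 21.5% in labelled cells, against at most 0.0344% with vehicle, and its part in the shift of all genes was not tested.

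**Figure D2:**
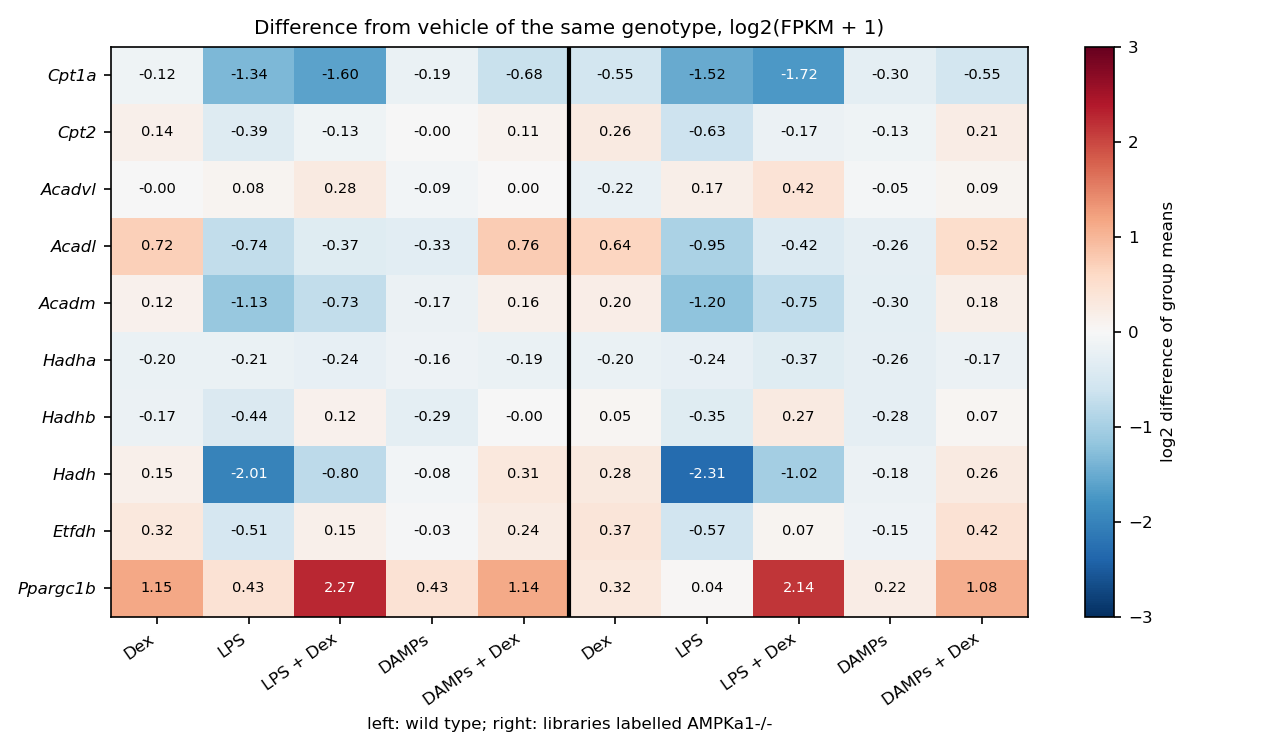
Difference of each group's mean log2(FPKM + 1) from the vehicle group of the same genotype, with genes in rows and treatments in columns, wild type on the left and libraries labelled AMPKα1-/- on the right (red higher, blue lower). Hadh under LPS is the lowest entry on both sides (-2.01 and -2.31) and Ppargc1b under LPS + Dex the highest (2.27 and 2.14).

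**Figure D3:**
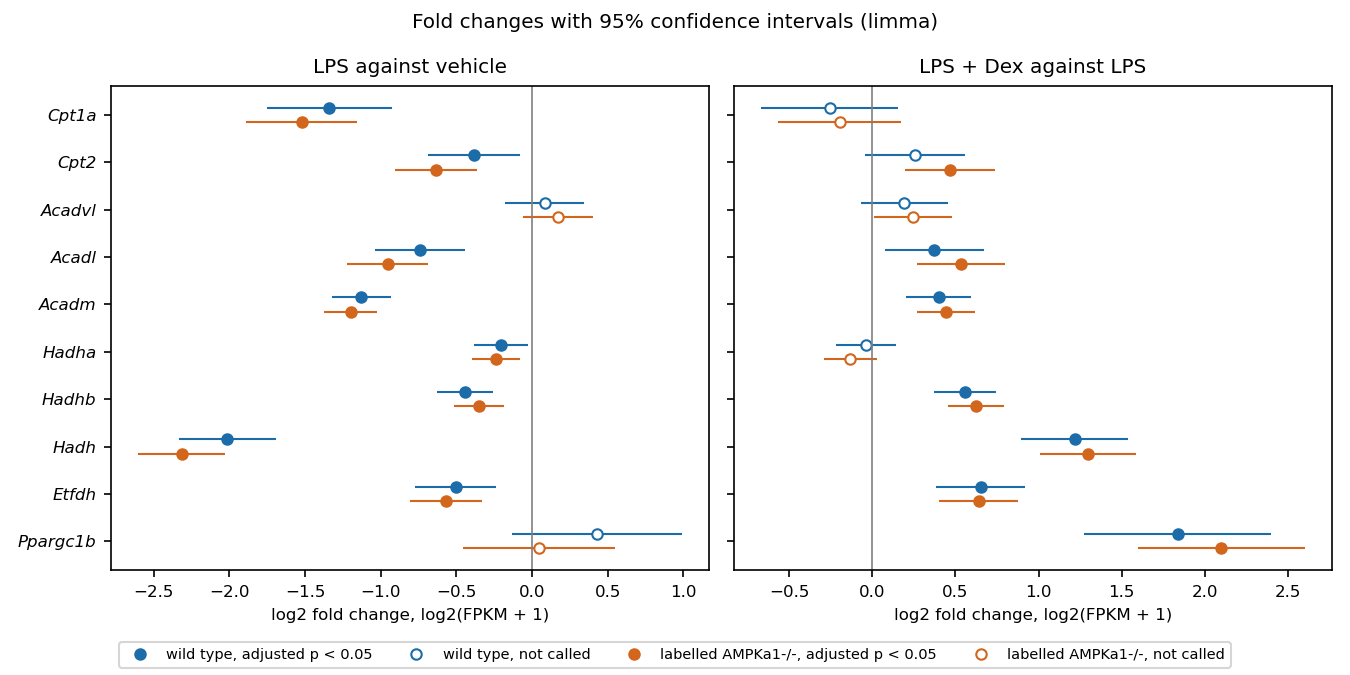
Log2 fold changes (horizontal axes) with 95% confidence intervals of the 10 genes for LPS against vehicle (left) and LPS + Dex against LPS (right), by genotype, with filled points where the gene was called. Hadh moved furthest among the enzymes in both panels, and Cpt1a is far below 0 on the left (-1.34 and -1.52) and not called on the right.

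Cpt1a (ENSMUSG00000024900, chr19:3322334-3385733) catalyses the rate-limiting entry of long-chain fatty acids. In wild-type cells it measured 39.7, 42.2 and 39.9 FPKM with vehicle, 16.7 and 14.2 with LPS, and 15.7, 14.6 and 8.95 with LPS + Dex. The libraries labelled AMPKα1-/- gave 51.0, 53.4 and 59.6 FPKM with vehicle, 18.1, 14.6 and 23.2 with LPS, and 16.2, 15.9 and 15.5 with LPS + Dex. In both genotypes the vehicle libraries lay above all LPS libraries, and the LPS and LPS + Dex libraries overlapped. Of all genes tested, 45.6% in wild-type and 49.3% in labelled libraries lay wholly below vehicle with LPS. With LPS + Dex, 23.9% and 24.0% lay wholly above LPS. Against vehicle, 18.0% and 19.6% lay wholly above and 37.4% and 48.1% wholly below with LPS + Dex. The same shares stand beside the genes that follow. The fall of Cpt1a with LPS was -1.34 ± 0.20 (adjusted p = 2.02e-06) in wild-type and -1.52 ± 0.18 (adjusted p = 2.73e-08) in labelled libraries. Adding Dex gave -0.26 (95% interval -0.67 to 0.16) and -0.20 (-0.57 to 0.17), neither called. Dex alone gave -0.12 ± 0.18 in wild-type cells and was called lower in labelled cells (-0.55 ± 0.18, adjusted p = 0.0216), a call lost without Dex replicate 2 (adjusted p = 0.101) or vehicle replicate 3 (adjusted p = 0.0858). With DAMPs + Dex against DAMPs it was called lower in wild-type cells (-0.49 ± 0.18, adjusted p = 0.0479), where the libraries overlapped and the call was lost without DAMPs replicate 1, DAMPs replicate 2 or DAMPs + Dex replicate 2 (adjusted p = 0.157, 0.182 and 0.359).

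Cpt2 (ENSMUSG00000028607, chr4:107903981-107923610), the inner-membrane transferase, moved within a narrower range. Its wild-type values were 19.0, 22.7 and 19.2 FPKM with vehicle, 13.7 and 17.0 with LPS, and 15.4, 20.8 and 19.6 with LPS + Dex. In labelled cells they were 22.2, 20.6 and 20.8, then 14.0, 12.7 and 13.3, then 18.5, 17.8 and 20.0 FPKM. All labelled LPS + Dex libraries lay above all labelled LPS libraries, while in wild type these groups overlapped. The fall with LPS was called in both genotypes (-0.39 ± 0.15, adjusted p = 0.0282, and -0.63 ± 0.13, adjusted p = 1.51e-04), and the wild-type call was lost without LPS replicate 2 (adjusted p = 0.306) or vehicle replicate 2 (adjusted p = 0.112). Neither fall was called after libraries were centred on one median (adjusted p = 0.324 and 0.0837). Dex on LPS raised it by 0.46 ± 0.13 in labelled libraries (adjusted p = 0.00602) and gave 0.26 ± 0.15 in wild-type cells, not called.

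The acyl-CoA dehydrogenases carry out the first step of each turn on very long (Acadvl), long (Acadl) and medium (Acadm) chains, and they did not move alike. Acadm (ENSMUSG00000062908, chr3:153922357-153944632) was 158, 143 and 166 FPKM with vehicle in wild-type cells, 67.5 and 73.6 with LPS, and 99.8, 97.4 and 83.6 with LPS + Dex. The labelled libraries gave 160.0, 158 and 155 FPKM, then 70.8, 70.2 and 63.5, then 99.7, 91.7 and 87.9. None of these groups overlapped within a genotype, with LPS lowest and LPS + Dex between LPS and vehicle. Acadm fell by 1.13 ± 0.10 and 1.20 ± 0.09 with LPS (adjusted p = 6.25e-11 and 1.34e-12) and rose by 0.40 ± 0.10 and 0.44 ± 0.09 with Dex on LPS (adjusted p = 0.00148 and 1.16e-04). It remained below vehicle in both genotypes (-0.73 ± 0.09 and -0.75 ± 0.09).

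Acadl (ENSMUSG00000026003, chr1:66830839-66863277) was the enzyme raised most by Dex without LPS. Wild-type libraries measured 32.6, 33.6 and 36.0 FPKM with vehicle and 51.3, 64.4 and 55.6 with Dex. Those labelled AMPKα1-/- measured 37.9, 33.0 and 40.1 FPKM with vehicle and 62.7, 59.9 and 51.9 with Dex. Every Dex library exceeded every vehicle library of its genotype, which held for 28.1% of all genes in wild-type and 20.5% in labelled cells. Acadl rose by 0.72 ± 0.13 (adjusted p = 1.01e-04) and 0.64 ± 0.13 (adjusted p = 4.22e-04). LPS brought it to 17.9 and 22.3 FPKM in wild-type and 19.5, 17.4 and 18.9 in labelled cells, and LPS + Dex to 23.3, 33.0 and 23.3 FPKM and 29.8, 28.9 and 23.6 FPKM. The fall with LPS was called in both genotypes (-0.74 ± 0.15 and -0.95 ± 0.13), and so was the rise with Dex on LPS (0.37 ± 0.15, adjusted p = 0.0478, and 0.53 ± 0.13, adjusted p = 0.00161). The wild-type rise was lost without LPS replicate 2 (adjusted p = 0.447) or LPS + Dex replicate 2 (adjusted p = 0.298). Against vehicle, the lower LPS + Dex level was lost in wild type without LPS + Dex replicate 1 or 3 or vehicle replicate 3 (adjusted p = 0.0920, 0.105 and 0.0701), in labelled cells without LPS + Dex replicate 3 (adjusted p = 0.0624), and in both genotypes after centring (adjusted p = 0.465 and 0.485).

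Acadvl (ENSMUSG00000018574, chr11:70010183-70015411) did not fall with LPS. Its wild-type values were 41.8, 43.0 and 43.6 FPKM with vehicle, 43.2 and 47.7 with LPS, and 64.1, 53.2 and 41.2 with LPS + Dex. In labelled cells they were 39.7, 42.4 and 41.6, then 45.2, 43.9 and 51.0, then 59.8, 59.1 and 47.9 FPKM. Against vehicle, LPS + Dex was called higher in both genotypes (0.28 ± 0.11, adjusted p = 0.0425, and 0.42 ± 0.11, adjusted p = 0.00277). In wild type the groups overlapped, and the call was lost in 5 of 6 fits that left out 1 library, the exception being the fit without LPS + Dex replicate 3 (adjusted p = 0.0679 to 0.338 in the others). LPS alone gave 0.08 ± 0.13 and 0.17 ± 0.11, not called as deposited and called higher after centring (0.23, adjusted p = 0.0388, and 0.45). The annotation places 1151 exonic bases of Acadvl, 42.9% of its exonic length, over exons of Dvl2 on the opposite strand (mean 13.3 FPKM), and whether strand was used in counting is not given in the sources used here, so the values of Acadvl are uncertain.

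The trifunctional protein carries out the later steps on long chains, with hydratase and dehydrogenase in the α subunit (Hadha) and thiolase in the β subunit (Hadhb). Hadha (ENSMUSG00000025745, chr5:30118304-30155162) was nearly flat, at 119, 122 and 133 FPKM with vehicle in wild-type cells, 108 and 108 with LPS, and 112, 106 and 98.2 with LPS + Dex. The labelled libraries gave 122, 128 and 134 FPKM, then 112, 111 and 102, then 101, 105 and 90.4. LPS was called lower in both genotypes (-0.21 ± 0.09, adjusted p = 0.0477, and -0.24 ± 0.08, adjusted p = 0.00995), by about as much as the median of all genes. After centring, the call was lost in wild type (-0.06) and the sign turned in labelled cells (0.04, adjusted p = 0.716). The wild-type call was also lost in 4 of 5 fits that left out 1 library, all but that without vehicle replicate 1 (adjusted p = 0.0623 to 0.170), and the labelled one without LPS replicate 3 (adjusted p = 0.0520). LPS + Dex against vehicle gave -0.24 ± 0.08 in wild-type (adjusted p = 0.0109) and -0.37 ± 0.08 in labelled cells (adjusted p = 2.26e-04). The wild-type call was lost without LPS + Dex replicate 3 or vehicle replicate 3 (adjusted p = 0.0658 and 0.0674), and centring ended both calls (-0.02, adjusted p = 0.882, and -0.08, adjusted p = 0.438).

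Hadhb (ENSMUSG00000059447, chr5:30155248-30184593) moved over a wider range than its partner. In wild-type cells it was 73.8, 74.5 and 71.4 FPKM with vehicle, 49.96 and 57.7 with LPS, and 83.1, 80.7 and 75.1 with LPS + Dex. The labelled libraries gave 66.8, 67.9 and 69.7 FPKM, then 57.3, 55.4 and 47.4, then 86.4, 84.8 and 76.6. In both genotypes the 3 groups did not overlap, with LPS lowest and LPS + Dex highest. Against vehicle, LPS + Dex gave 0.27 in labelled cells, called higher. In wild-type cells it gave 0.12 (adjusted p = 0.223), not called as deposited and called higher after centring (0.34, adjusted p = 0.00553). The fall with LPS was -0.44 ± 0.09 and -0.35 ± 0.08 (adjusted p = 1.46e-04 and 4.32e-04), and the labelled one was not called after centring (-0.08, adjusted p = 0.540). Dex on LPS raised it by 0.56 ± 0.09 and 0.62 ± 0.08 (adjusted p = 1.43e-05 and 3.59e-07).

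The ratio of Hadhb to Hadha within a library does not depend on library scaling, though its level depends on the gene lengths used. It averaged 0.499 over the wild-type LPS libraries and 0.756 with LPS + Dex, and 0.492 and 0.836 in labelled cells. The LPS libraries lay at 0.462 to 0.535 and the LPS + Dex libraries at 0.744 to 0.852 over both genotypes, with no overlap. An exact permutation test (2-sided, labels permuted within genotype) gave p = 0.005, the smallest that 200 permutations can give, and 0.015 after adjustment over 6 such comparisons. The ratio was chosen after the values had been seen, so its p-values are not an independent test of what prompted it. LPS against vehicle gave changes of -0.24 and -0.12 on the log2 scale (exact permutation p = 0.015, adjusted 0.0225), and DAMPs + Dex against DAMPs gave 0.32 and 0.26 (exact permutation p = 0.01, adjusted 0.02). LPS + Dex against vehicle gave 0.36 and 0.65 (exact permutation p = 0.005, adjusted 0.015). Dex against vehicle gave 0.03 in wild-type and 0.25 in labelled cells (exact permutation p = 0.035, adjusted 0.042), and DAMPs against vehicle gave -0.14 and -0.02 (exact permutation p = 0.285). With labels exchanged only within same-numbered labelled libraries where the numbers pair, a setting chosen after seeing the data, the Dex against vehicle call was lost (exact permutation p = 0.0875, adjusted 0.105), and the other 3 paired comparisons kept adjusted p of 0.025 to 0.0375. A ratio shows unequal change of the subunits, and not which of them moved.

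**Figure D4:**
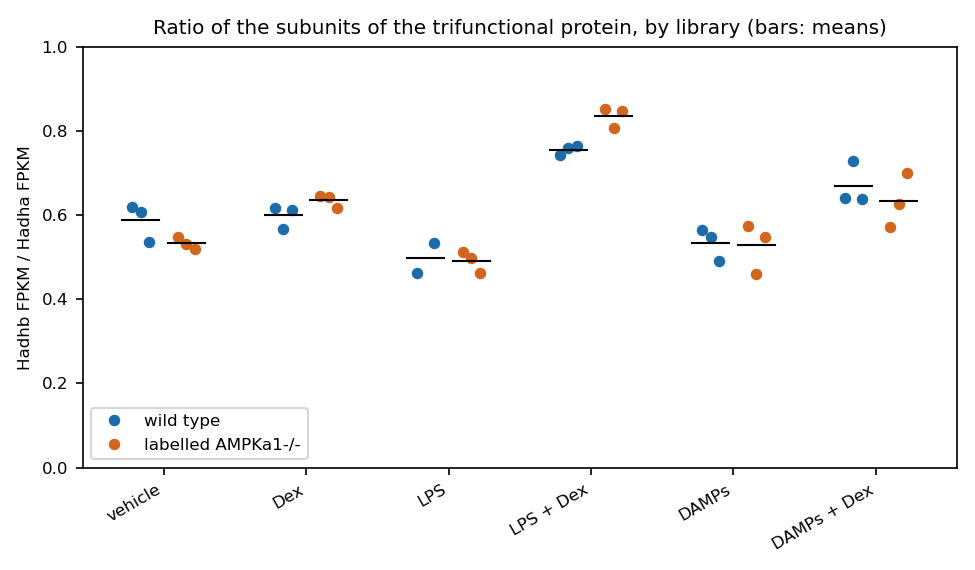
Ratio of Hadhb to Hadha FPKM (vertical axis, from 0) in each library by treatment and genotype, with group means as bars. The LPS + Dex libraries (0.744 to 0.852) lie above every library of the other groups, and the LPS libraries are at 0.535 or lower.

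Hadh (ENSMUSG00000027984, chr3:131233419-131272101), the dehydrogenase of the third step for medium and short chains, showed the largest response of the enzymes. Wild-type libraries gave 19.4, 18.9 and 20.3 FPKM with vehicle, 3.97 and 4.20 with LPS, and 11.6, 11.2 and 9.75 with LPS + Dex. Those labelled AMPKα1-/- gave 22.0, 18.8 and 23.1 FPKM, then 4.07, 4.51 and 2.18, then 10.7, 11.2 and 8.23. The 3 groups were separate in each genotype, with LPS + Dex about midway between LPS and vehicle. The fall was -2.01 ± 0.16 (adjusted p = 1.28e-11) and -2.31 ± 0.14 (adjusted p = 4.84e-14), and Dex on LPS raised Hadh by 1.22 ± 0.16 (adjusted p = 4.31e-07) and 1.30 ± 0.14 (adjusted p = 1.53e-08). It remained below vehicle by -0.80 ± 0.14 and -1.02 ± 0.14, both called.

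Etfdh (ENSMUSG00000027809, chr3:79603788-79629500), which hands electrons from the dehydrogenases to ubiquinone, was low in the LPS libraries alone. Its wild-type values were 20.6, 19.5 and 21.2 FPKM with vehicle, 13.4 and 14.8 with LPS, and 24.9996, 24.0 and 19.5 with LPS + Dex. In labelled cells they were 21.8, 23.0 and 21.5, then 14.5, 16.5 and 12.96, then 24.3, 25.3 and 20.7 FPKM. The LPS libraries lay below those of vehicle and LPS + Dex, and vehicle and LPS + Dex overlapped. With LPS it fell by 0.51 ± 0.13 and 0.57 ± 0.12 (adjusted p = 0.00159 and 1.19e-04), Dex on LPS raised it by 0.65 ± 0.13 and 0.64 ± 0.12 (adjusted p = 2.21e-04 and 5.67e-05), and LPS + Dex against vehicle gave 0.15 ± 0.12 and 0.07 ± 0.12, not called.

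Ppargc1b (ENSMUSG00000033871, chr18:61298136-61400431) encodes PGC-1β, a coactivator of nuclear receptors known for its part in mitochondrial biogenesis and oxidative metabolism. It was 1.18, 0.874 and 1.23 FPKM with vehicle in wild-type cells, 1.88 and 1.73 with LPS, and 14.7, 8.36 and 5.87 with LPS + Dex. The labelled libraries gave 1.04, 0.601 and 1.98 FPKM, then 1.13, 1.33 and 1.15, then 7.83, 8.19 and 9.35. Every LPS + Dex library exceeded every vehicle and LPS library. Dex on LPS raised it by 1.84 ± 0.27 (adjusted p = 4.53e-06) and 2.10 ± 0.25 (adjusted p = 6.26e-08), and LPS alone was not called (0.43 ± 0.27 and 0.04 ± 0.25), although it was called higher in wild type after centring (0.58, adjusted p = 0.0406) and in both genotypes after quantile normalization (adjusted p = 0.00864 and 0.0392). Its low level makes single libraries count, with about 44 fragments in the lowest one by the annotated gene length.

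Dex without LPS moved 4 of the 10 genes in wild-type and 3 in labelled libraries, of which Acadl was the firmest. In wild-type cells 3 were called higher (15.9% of all genes) and 1 lower (14.9%), and in libraries labelled AMPKα1-/- 2 were higher (11.9%) and 1 lower (16%). Acadl and Etfdh were higher in both genotypes. Etfdh rose by 0.32 ± 0.12 (adjusted p = 0.0346) and 0.37 ± 0.12 (adjusted p = 0.0178), but the wild-type call was lost in 5 of 6 fits that left out 1 library, all but that without Dex replicate 2 (adjusted p = 0.0510 to 0.148). The labelled call was lost without Dex replicate 1 or 3 or vehicle replicate 3 (adjusted p = 0.104, 0.0555 and 0.0575). Ppargc1b was 3.61, 5.24 and 2.44 FPKM with Dex in wild-type cells, a rise of 1.15 ± 0.25 (adjusted p = 7.04e-04), and 1.85, 1.23 and 1.96 FPKM in labelled cells, not called. Hadha was the wild-type gene called lower (-0.20 ± 0.08, adjusted p = 0.0496), a call kept in 1 of 6 fits that left out 1 library, that without vehicle replicate 1 (adjusted p = 0.0798 to 0.183 in the others). The wild-type calls fell from 4 to 2 without Dex replicate 1, Dex replicate 3, vehicle replicate 2 or vehicle replicate 3, and the labelled ones from 3 to 1 without vehicle replicate 3.

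With DAMPs alone, 0 of 10 genes were called by limma in wild-type cells, 0 higher and 0 lower, with 1099 of all genes at an unadjusted p under 0.05. The background was 1.22% of all genes called higher and 0.793% called lower, 228 genes in all, which became 26 without DAMPs replicate 3, 81 without vehicle replicate 3, 114 without vehicle replicate 1 and 372 without DAMPs replicate 2. Hadhb came nearest (-0.29 ± 0.08, adjusted p = 0.0578), and it was called without DAMPs replicate 2 (adjusted p = 0.0375). In labelled libraries Acadm (-0.30 ± 0.09, adjusted p = 0.0438) and Hadhb (-0.28 ± 0.08, adjusted p = 0.0433) were called lower, where 2.24% of all genes were lower and 1.89% higher, 469 genes that became 267 to 311 without DAMPs replicate 1 or 3 or vehicle replicate 2 or 3. Neither call stood up to centring (adjusted p = 0.187 and 0.359). The Acadm call was lost on leaving out any 1 of the 6 libraries (adjusted p = 0.0691 to 0.161), and the Hadhb call in all but the fit without DAMPs replicate 3 (adjusted p = 0.0761 to 0.253).

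Dex on DAMPs raised 5 of 10 genes in wild-type cells (11.7% of all genes) and lowered 1, Cpt1a (12.6%). In libraries labelled AMPKα1-/- it raised 6 (13.1%) and lowered 0 (12.2%). Acadm, Acadl, Hadhb, Hadh and Ppargc1b were called in both genotypes, and Etfdh in labelled libraries as well. Without DAMPs replicate 2 the wild-type calls fell from 6 to 3. Acadl rose most among the enzymes, from 24.2, 29.8 and 27.1 FPKM with DAMPs to 57.2, 61.4 and 57.0 with DAMPs + Dex in wild-type cells. That is 1.09 ± 0.13 (adjusted p = 2.12e-07), and in labelled cells it was 0.78 ± 0.13 (adjusted p = 3.63e-05). Acadm rose by 0.33 ± 0.09 and 0.48 ± 0.09, and Etfdh in labelled cells by 0.57 ± 0.12. Hadh rose by 0.38 ± 0.14 and 0.44 ± 0.14, but the wild-type call was lost on leaving out any 1 library (adjusted p = 0.0544 to 0.123) and the labelled one without DAMPs + Dex replicate 1 (adjusted p = 0.0882) or DAMPs replicate 2 (adjusted p = 0.124). Ppargc1b rose by 0.71 ± 0.25 and 0.87 ± 0.25, lost in wild type without DAMPs + Dex replicate 1, DAMPs replicate 2 or DAMPs + Dex replicate 3 (adjusted p = 0.0744, 0.133 and 0.143) and in labelled cells without DAMPs + Dex replicate 3 (adjusted p = 0.0653). Hadhb rose by 0.29 ± 0.08 and 0.35 ± 0.08, lost in wild type without DAMPs replicate 3 (adjusted p = 0.0693).

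The libraries labelled AMPKα1-/- were compared with wild type under each treatment, to ask whether the label moved the genes. Of 60 such values, 1 was called. Ppargc1b was lower in labelled cells under Dex (-0.80 ± 0.25, adjusted p = 0.0226). Its Dex libraries did not overlap between the genotypes, but 30.7% of all genes lay wholly lower there and 18.8% wholly higher. That comparison called 26.5% of all genes, 3008 in number, and the count fell to 304 without wild-type Dex replicate 2, 308 without labelled Dex replicate 2 and 1662 without wild-type Dex replicate 1. The Ppargc1b call was lost without these same libraries (adjusted p = 0.157, 0.137 and 0.0522). After centring, Acadm, Hadhb, Hadh and Etfdh were called higher in labelled Dex libraries (0.26, 0.28, 0.40 and 0.31), and the share of higher genes among all those called went from 41.4% to 59.1%. Under the other treatments 0 of 10 genes were called, against 0.432% of all genes with vehicle, 0.766% with LPS, 0.669% with LPS + Dex, 0.731% with DAMPs and 1.06% with DAMPs + Dex. These shares are of few genes, and leaving out 1 library moved them. With vehicle, 49 genes became 28 to 32 without vehicle replicate 1 or 3 of wild type or 1 or 2 of the labelled cells. Under LPS, 87 became 9 without wild-type replicate 3 and 22 without labelled replicate 1. Under LPS + Dex, 76 became 36 to 48 without wild-type replicate 1 or labelled replicate 1 or 3. Under DAMPs, 83 became 25 to 55 without any 1 of the 6 libraries. Under DAMPs + Dex, 120 became 49 to 73 without wild-type replicate 2 or 3 or labelled replicate 1 or 2. Cpt1a was higher in every labelled vehicle library than in any wild-type one, by 0.42 ± 0.18, and higher again under DAMPs + Dex by 0.54 ± 0.18, but neither was called (adjusted p = 0.654 and 0.193). Of all genes, 8.10% lay wholly higher with vehicle and 7.49% with DAMPs + Dex. Etfdh also lay wholly higher in both comparisons, and Hadhb lay wholly lower with vehicle.

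Whether the response itself differed by label was tested as an interaction for LPS, LPS + Dex against LPS, Dex and DAMPs. In each of these limma called 0 genes of 11354 (0%), with 514, 311, 2441 and 66 genes at an unadjusted p under 0.05. Without the filter on low values, 118, 75, 21 and 2 genes were called. Leaving out 1 library gave up to 13 genes for LPS (without wild-type LPS replicate 2), up to 2 for LPS + Dex against LPS (without wild-type LPS replicate 2 or labelled LPS replicate 3) and 1 for Dex (without wild-type Dex replicate 3). For Hadh the difference of the LPS response was -0.30 (95% interval -0.73 to 0.13) and that of the Dex response on LPS 0.08 (-0.35 to 0.51). For Ppargc1b under Dex it was -0.83 (-1.54 to -0.12), with an adjusted p of 0.198.

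The remaining genes of fatty acid metabolism were read from lists, whose counts stand beside the same shares of all genes as above. Of 13 other mitochondrial β-oxidation genes, 5 were called lower and 2 higher with LPS in each genotype (median -0.12 in wild-type and -0.11 in labelled libraries), shares near the 35.8% and 44.1% of all genes called lower and the 19.9% and 20.2% called higher. Dex on LPS raised 8 and lowered 1 in wild-type cells and raised 6 and lowered 1 in labelled cells (medians 0.41 and 0.41), where 16.6% and 19.3% of all genes were higher and 17.5% and 18.4% lower. Acaa2, the thiolase of the last step, followed Hadh, with wild-type means of 39.0 FPKM with vehicle, 7.79 with LPS and 26.6 with LPS + Dex (-2.18 and then 1.65). Eci2, an isomerase for unsaturated chains, rose with LPS and again with Dex, from 29.6 to 49.1 to 181 FPKM in wild-type and from 28.1 to 63.1 to 180.0 FPKM in labelled cells. Hsd17b10, a short-chain dehydrogenase, rose with Dex on LPS from 35.5 to 113 FPKM (1.64 in wild-type and 1.55 in labelled cells). Acads, the short-chain dehydrogenase of the first step, fell by 0.97 and 1.02 with LPS.

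In the peroxisome, where very long chains are shortened, 6 of 9 tested genes were lower and 1 higher with LPS in wild-type cells. In labelled cells 7 were lower and 1 higher, beside 35.8% and 44.1% of all genes lower and 19.9% and 20.2% higher. After Dex on LPS, 6 of 9 were higher and 0 lower in each genotype. Of all genes, 16.6% and 19.3% were higher there and 17.5% and 18.4% lower. The transporter Abcd2 and the oxidase Acox3 were among the genes that fell. Abcd2 went from 6.74 to 1.27 to 7.12 FPKM over wild-type vehicle, LPS and LPS + Dex, a fall of -1.77 and a rise of 1.74. Acox3 fell from 55.5 to 15.1 FPKM with LPS and was at 20.9 FPKM with LPS + Dex.

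In activation and shuttling, of 10 tested genes, 4 were higher and 3 lower with LPS in wild-type cells (4 and 4 in labelled cells), and Dex on LPS raised 3 and lowered 2 in each genotype. Of all genes, 35.8% and 44.1% were lower and 19.9% and 20.2% higher with LPS, and 16.6% and 19.3% were higher and 17.5% and 18.4% lower with Dex on LPS. The acyl-CoA synthetase Acsl1, which activates long-chain fatty acids, went from 30.2 to 275 FPKM with LPS in wild-type cells, a rise of 3.12, and Acsl5 from 34.6 to 200.2 FPKM. Acaca, whose product malonyl-CoA inhibits CPT1, rose from 5.39 to 16.9 FPKM in wild-type cells. Crat, the carnitine acetyltransferase, rose with Dex on LPS from 25.7 to 54.0 FPKM (1.04 in wild-type and 0.91 in labelled cells), and so did Mlycd, which degrades malonyl-CoA (0.76 and 0.83). Cpt1b and Cpt1c, the other members of the CPT1 family, did not pass the filter on low values.

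In uptake, storage and release, of 14 tested genes, 9 were lower and 2 higher with LPS in wild-type cells and 8 lower and 3 higher in labelled cells (medians -1.12 and -0.85), beside 35.8% and 44.1% of all genes lower and 19.9% and 20.2% higher. The lysosomal lipase Lipa fell from 685 to 36.7 FPKM, lipoprotein lipase Lpl from 1478 to 183 FPKM, and the fatty acid receptor Cd36 from 360.0 to 51.5 FPKM in labelled cells. With LPS + Dex against LPS, 4 were higher and 4 lower in wild-type and 3 higher and 5 lower in labelled cells, beside 16.6% and 19.3% of all genes higher and 17.5% and 18.4% lower. The fatty acid-binding protein Fabp4 rose from 2.11 to 43.1 FPKM (3.86), while in wild-type cells Cd36 fell from 88.7 to 10.6 FPKM (-2.97) and Fabp3 fell by 2.53.

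Among 11 tested regulators, 6 were lower and 2 higher with LPS in wild-type cells and 8 lower and 2 higher in labelled cells, beside 35.8% and 44.1% of all genes lower and 19.9% and 20.2% higher. The nuclear receptor Pparg fell from 36.4 to 0.664 FPKM in wild-type cells, and its partner Rxra from 59.7 to 17.8 FPKM. Dex on LPS raised 4 and lowered 2 in wild-type and raised 4 and lowered 0 in labelled cells (16.6% and 19.3% of all genes higher, 17.5% and 18.4% lower), led by the mitochondrial deacetylase Sirt3 (0.84 and 0.97) and while Pparg was at 0.736 and 0.340 FPKM with LPS + Dex. The receptor Ppara and the coactivator Ppargc1a reached at most 0.0547 and 0.0471 FPKM in any library and were not tested. Of 2 tested PPAR targets outside the pathway, the uncoupling protein Ucp2 fell from 707 to 252 FPKM with LPS and was at 697 FPKM with LPS + Dex in wild-type cells, and Angptl4 fell from 7.96 to 0.0903 FPKM and was at 0.0079 FPKM with LPS + Dex. The AMPK subunit Prkag2 fell from 23.1 to 3.76 FPKM with LPS and rose to 9.37 FPKM with LPS + Dex in wild-type cells, and 2 of 5 tested subunits were lower with LPS in wild type (35.8% of all genes) and 4 of 5 in labelled cells (44.1%).

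**Figure D5:**
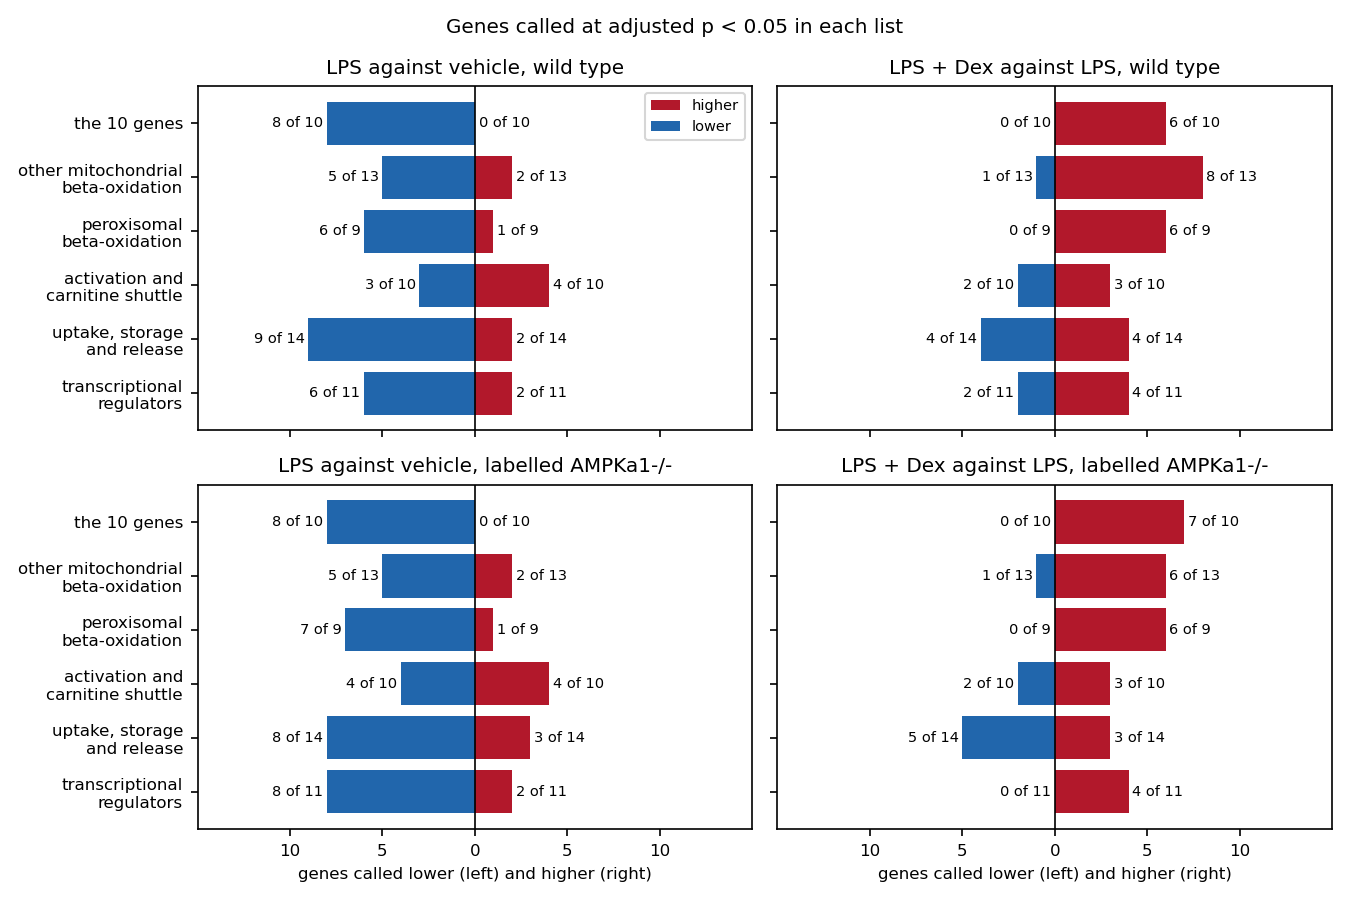
Number of genes called lower (blue, left) and higher (red, right) among those tested in each list, for LPS against vehicle (left panels) and LPS + Dex against LPS (right panels), in wild-type (top) and labelled AMPKα1-/- libraries (bottom). Among the 10 genes, 8 are lower on the left in both genotypes and 6 or 7 higher on the right, while uptake, storage and release holds 4 genes on each side on the right in wild type.

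Across the 12 group means, which share the scaling of their libraries, the members did not form one pattern. The correlation of each gene with the mean of the others was 0.91 for Etfdh and for Cpt2, 0.89 for Hadh, 0.85 for Acadm and 0.82 for Acadl. It was 0.63 for Hadhb, 0.41 for Cpt1a, 0.16 for Hadha, 0.10 for Ppargc1b and -0.40 for Acadvl. The genes most like the mean pattern of the 10 were Hmgb2, Paics, F13a1, Dele1 and Elmo2 (Pearson r 0.978 to 0.959 over 12 group means). Those most like Cpt1a were Fnbp1, Fam129a, Tanc2, Gprc5c and Cd300lb (0.984 to 0.971).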

How the data were processed

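BMDM libraries were sequenced by Novogene, and the authors deposited FPKM values per library. The submitters' processing notes name Bowtie2 2.2.3, TopHat2 2.0.12, HTSeq 0.6.1, DESeq2 and the builds GRCm38 and mm10, with no roles given. Symbols and positions were taken from GENCODE M21 (GRCm38), which matched 46574 of 47069 identifiers. Promoters came from RefSeq (GRCm38.p6). Groups came from the sample titles.

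Here limma 3.58.1 (R 4.3.3, empirical Bayes with trend, 2-sided) was fitted to log2(FPKM + 1) of 35 libraries in 12 groups, so that wild-type LPS shares the spread of the others, for the 11354 genes whose mean reached 1 FPKM, at a Benjamini-Hochberg threshold of 0.05. Since a few abundant genes can take up much of a library, FPKM scaling can shift all other genes. In the steps used for depth, 57.7% to 65.8% of low genes came out whole within 0.01 fragments, so fragments of single genes are estimates. Tables and figures used Python 3.11.15, numpy 2.4.6, pandas 2.3.3 and matplotlib 3.10.9.

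The genes and lists were chosen with earlier results of these data known. All 10 genes are named. From each list, up to 3 called genes with the largest change are named for LPS against vehicle and LPS + Dex against LPS, and check genes, markers and the 5 genes most alike (mean FPKM of at least 5) are named as such. Cpt1b, Cpt1c, Ppara and Ppargc1a were named outside this rule because of their role, and some genes that the rule or the marker lists hold are not reported here.

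Same-numbered libraries labelled AMPKα1-/- deviated together for LPS against vehicle (r 0.12 to 0.32), LPS + Dex against LPS (0.36 to 0.37), LPS + Dex against vehicle (0.25 to 0.36) and Dex against vehicle (0.22 to 0.40), and so did the genotypes under LPS + Dex (0.12 to 0.51), each pair over the 0.1 set for pairing. Whether libraries of one number share a mouse is not given in the sources used here. Settings tried besides were a pseudocount of 0.1, dropping the filter or raising it to 5 FPKM, centring on one median, quantile normalization, only the libraries of the comparison or genotype, a replicate block, and leaving out each library.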

Additional observations from a re-analysis of the deposited data

How the results depend on the processing

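Of 220 fold changes of the 10 genes, calls were lost and gained in 2 and 0 with a pseudocount of 0.1, 5 and 1 without the filter, 12 and 14 with centring, 7 and 11 with quantile normalization, 11 and 1 with only the libraries of the comparison or genotype, and 2 and 2 with the replicate block. With a mean FPKM of at least 5, 198 were tested and none changed. Of 1510 fits that left out 1 library, 65 lost and 6 gained a call, and of the called changes 0 turned direction. With centring, 1 called change turned sign, that of Hadha with LPS in labelled libraries (-0.24 to 0.039). Sign turns of changes that were not called are left out of these counts. The causes were not tested, except that fits without a library have fewer samples. The falls of Hadh, Cpt1a, Acadm, Acadl and Etfdh with LPS kept their call in both genotypes under every setting listed here. So did the rises of Hadh, Hadhb, Acadm, Etfdh and Ppargc1b with Dex on LPS. Ppargc1b lay below the 5 FPKM minimum and was not tested there.

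Centring moved the median over the 10 genes with LPS from -0.47 to -0.32 in wild-type and from -0.60 to -0.32 in labelled libraries (-0.37 with quantile normalization). For LPS + Dex against vehicle it gave 0.039 in wild-type and 0.019 in labelled libraries, where quantile normalization gave -0.066 and the 5 FPKM minimum -0.37. Centring also gave 0.043 for Dex in wild-type, -0.16 for DAMPs and 0.34 for DAMPs + Dex against DAMPs in labelled libraries (0.35 with the 5 FPKM minimum), 0.23 and 0.081 between genotypes under Dex and LPS, and 0.20 for the genotype difference of Dex. Leaving out 1 library gave medians of -0.13 to -0.061 for DAMPs and 0.22 to 0.30 for DAMPs + Dex against DAMPs in wild-type libraries. In labelled libraries it gave -0.27 to -0.16 and 0.31 to 0.47. Between genotypes it gave -0.11 to 0.030 under LPS and 0.020 to 0.11 under DAMPs + Dex.

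Members called fell from 4 to 2 for Dex in wild-type libraries (quantile normalization or own libraries), from 6 to 3 for DAMPs + Dex against DAMPs in wild type (no filter), and from 2 to 0 for DAMPs in labelled libraries (centring or own libraries). Between genotypes under Dex they went from 1 to 5 with centring, 3 with quantile normalization and 0 with the 5 FPKM minimum. Genes called between genotypes were 49 with vehicle (19 to 92 over the settings), 87 with LPS (3 with own libraries, 450 without the filter), 76 with LPS + Dex (7 and 146), 83 with DAMPs (11 with own libraries, 41 with the pseudocount of 0.1, 54 with the 5 FPKM minimum) and 120 with DAMPs + Dex (35 with own libraries). With DAMPs in wild type, 228 became 94 with own libraries. Without the filter the interactions called 118, 75, 21 and 2 genes for LPS, LPS + Dex against LPS, Dex and DAMPs, quantile normalization 1 for each of the first 3, centring 4 and own libraries 3 for Dex, and the replicate block 5 for LPS. Among genes called between genotypes, the share of higher ones went from 54.0% to 69.9% under LPS and from 50% to 60.8% under LPS + Dex with centring, and that for Dex in labelled libraries from 42.8% to 53.0% with quantile normalization.

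With the replicate block, no call of the 10 genes changed in the comparisons whose numbers pair. Elsewhere, where libraries share only a number, Hadha lost its wild-type calls with LPS (adjusted p = 0.0695) and Dex (0.0579), and Cpt2 was called for LPS + Dex against LPS in wild-type (0.35, adjusted p = 0.0254) and DAMPs + Dex against DAMPs in labelled libraries (0.34, adjusted p = 0.0189). The block gave a median of 0.41 for LPS + Dex against LPS in wild type and 83 genes between genotypes with vehicle.

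By depth, Ppargc1b rested on about 44 fragments in its lowest library.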
